A study of Homo sapiens with 2 samples.

Results

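Receptor tyrosine kinases are cell-surface proteins that bind a growth factor or a neighbouring cell's ligand on the outside and phosphorylate tyrosines on the inside. The 49 genes described here belong to this class outside the EGFR family, though they are not all of it. They were chosen by name from the known families and read through every probe set that the array's annotation gives to 1 of them alone. Of the 49, 47 had such a probe set, 142 probe sets in all out of 54675 on the array, and the genes on the array with probe sets of their own numbered 19775. The probe sets of DDR1 also listed another gene and gave it no value, and EPHB2 was not analysed here.

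The arrays compared stable lines of MDA-MB 231, an invasive breast cancer line without estrogen receptor, with 1 Affymetrix array for each of 2 lines. The S100A7 line carried S100A7, a small calcium-binding protein also called psoriasin, in the plasmid pIRES2-EGFP, and the vector line carried that plasmid alone. Both lines therefore share the EGFP plasmid and the stable selection. The labels do not say whether a line was 1 clone, so a difference between the arrays is a difference between these lines. The question of the series is which genes S100A7 regulates.

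Values are MAS5 intensities, a summary of 1 probe set's signal on a linear scale. There were no replicates, so no test was possible and no difference below has been set against the spread between cultures. A probe set was counted as measured when it reached its array's 50th percentile, 69.0 on the S100A7 array and 71.0 on the vector array. Lower values were raised to that floor, and a fold with 1 side at the floor is written "at least". Each gene takes the value of its brightest measured probe set, and it was called when the arrays were at least 2-fold apart. S100A7 itself read 13232 on the S100A7 array and 11.99 on the vector array. The mesenchymal cancer markers VIM (35575 on the S100A7 array, 38087 on the vector array) and CD44 (12481 on the S100A7 array, 11465 on the vector array) were bright on both arrays, as were 3 of the 6 listed luminal genes, KRT18 (15670 on the S100A7 array, 18785 on the vector array), KRT8 (6927 on the S100A7 array, 6412 on the vector array) and GATA3 (752 on the S100A7 array, 720 on the vector array). The other 3, ESR1, PGR and FOXA1, were under the floor on both. The ratio of 3' to 5' signal, a measure of RNA integrity, was 1.07 on the S100A7 array and 1.09 on the vector array for ACTB, and 0.801 on the S100A7 array and 0.718 on the vector array for GAPDH.

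Receptor tyrosine kinases drive growth, movement and survival through RAS, PI3 kinase and STAT signalling, and each tissue uses its own set. MET, AXL, EPHA2 and the EGF receptor are the ones best known from basal breast cancer cells. Others mark normal cell types, such as TIE1, TEK and KDR in endothelium, KIT in mast cells, CSF1R in macrophages and MUSK in muscle. These are roles known from other work and not results of these arrays.

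Of the 47 receptor genes with a probe set of their own, 28 were measured and 19 lay under the floor on both arrays. TIE1 was the 1 receptor at least 2-fold higher on the S100A7 array, against 1.8% of all 12688 measured genes, and MET the 1 at least 2-fold lower, against 2.25%. With 28 genes, 1 call in either direction is near those backgrounds. At 1.5-fold, 3 receptors were higher (TIE1, PTK7 and PDGFRB; background 8.12%) and 6 were lower (MET, MERTK, TYRO3, EPHB4, EPHB3 and RET; background 10%). The median log2 ratio of the 28 was -0.02, against -0.04 for all measured genes, and 14 lay above 0 and 14 below.

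**Figure D1:**
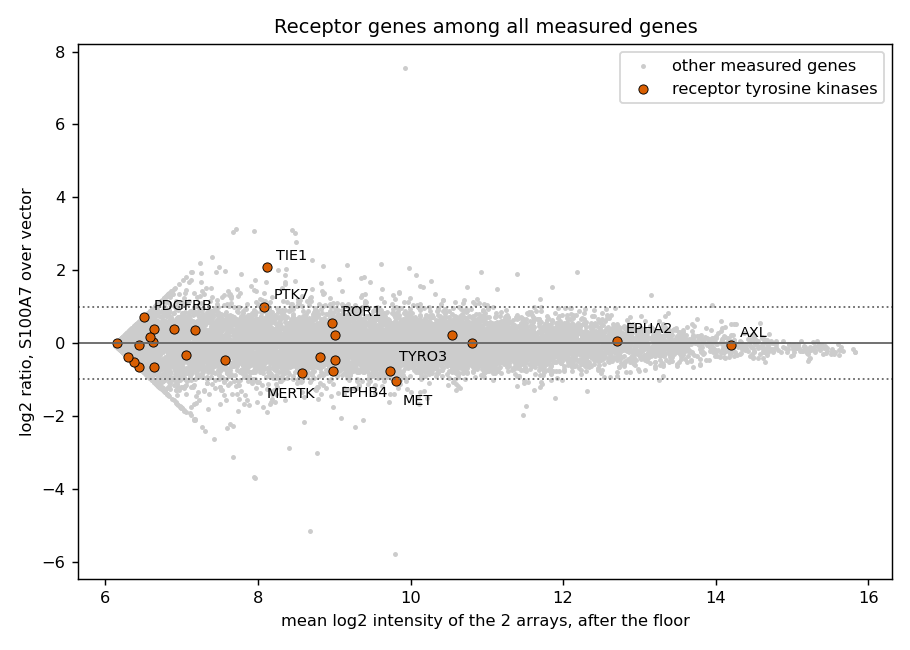
Log2 ratio of S100A7 over vector (vertical) against mean log2 intensity after the floor (horizontal) for 12688 measured genes in grey and the 28 measured receptor genes in orange, with dotted lines at 2-fold. TIE1 lies at 2.09 and MET at -1.04, while the other 26 receptors lie inside the dotted lines.

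By signal, AXL, EPHA2, RYK and FGFR1 held the 4 highest ranks in that order on both arrays. MET ranked 6 on the S100A7 array and 5 on the vector array, and TIE1 ranked 8 on the S100A7 array and 16 on the vector array. This is an order of signals: probe sets bind with different strength, so it is not an order of transcript amounts. With 1 array a line, neighbours in this order could not be told apart by any measured spread.

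**Figure D2:**
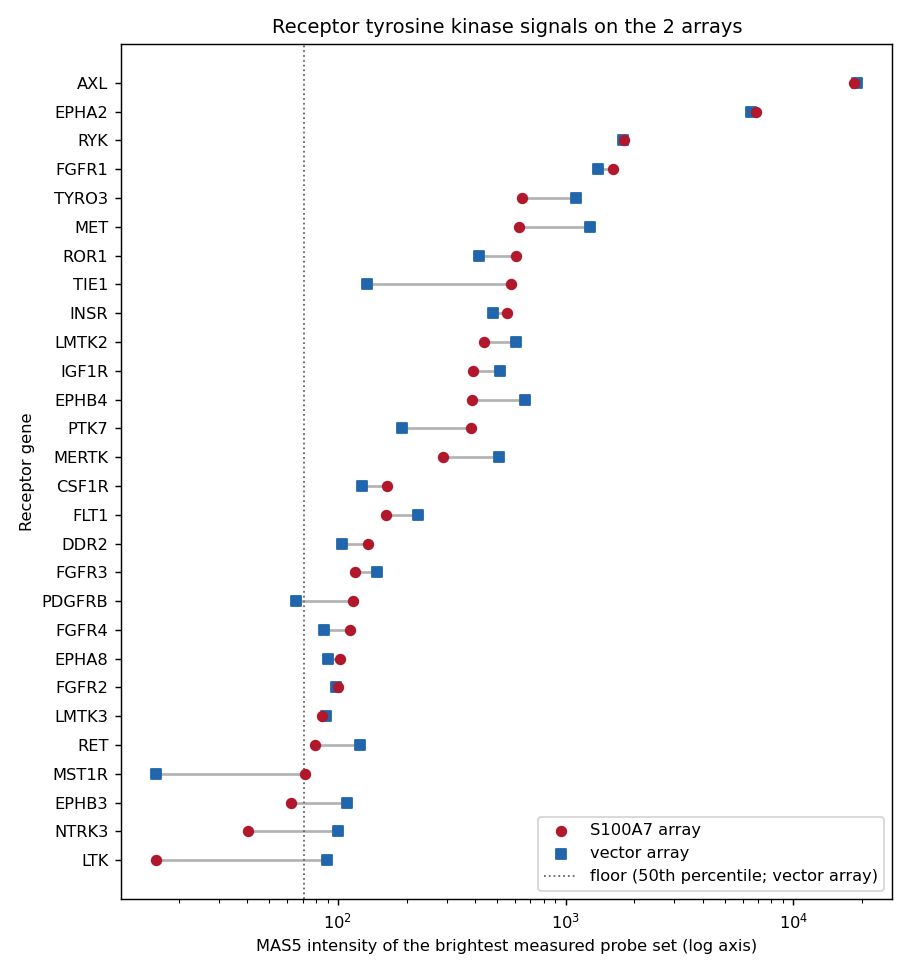
MAS5 intensity (log axis) of the brightest measured probe set of each of the 28 measured receptor genes, S100A7 array as red circles and vector array as blue squares, ordered by the S100A7 array; the dotted line is the floor of 71.0 on the vector array. AXL and EPHA2 stand furthest right with overlapping symbols, and the widest gap above the floor is that of TIE1.

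TIE1, an orphan receptor that modulates angiopoietin signalling through its relative TEK, had the largest difference among the 28 measured receptors with the floor in place. With no floor MST1R, described below, had a log2 ratio of 2.17, against 2.09 for TIE1. MUSK (3.55), EPHA7 (2.59) and ROS1 (2.13), under the floor on both arrays, also exceeded TIE1 then. The measured one of the 2 TIE1 probe sets read 573.7 on the S100A7 array and 134.4 on the vector array, which is 4.27-fold higher. Both values were above the floor. The other read 1.78 on the S100A7 array and 18.7 on the vector array, under the floor on both, so the difference rests on 1 probe set whose suffix _s_at means that its probes can match several transcripts. TEK, the angiopoietin receptor, stayed under the floor, with 2.75 and 9.81 on the S100A7 array and 16.8 and 36.7 on the vector array. Among its ligands ANGPT1 had at most 52.6 on the S100A7 array and 91.2 on the vector array, and ANGPT2 at most 66.4 on the S100A7 array and 15.0 on the vector array. Of the 7 listed endothelial markers 4 were measured, and 0 of these were called 2-fold apart, with the vector value of CDH5 raised to the floor. The summed signal of the 7 was 1922 on the S100A7 array and 1958 on the vector array. Most of that sum came from ROBO4, at 1198 on the S100A7 array and 1297 on the vector array, and EGFL7, at 385 on the S100A7 array and 399 on the vector array, while VWF, CLDN5 and ERG were under the floor on both. CDH5 read 79.0 on the S100A7 array and 24.8 on the vector array, at least 1.11-fold higher, and PECAM1 read 168 on the S100A7 array and 132 on the vector array.

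The sequences just upstream of TIE1, of MET, and of MERTK and TYRO3, are shown because TIE1 was the receptor called higher and the other 3 were at least 1.5-fold lower on every measured probe set. Each is the 250 bases before the annotated start on the plus strand, 5′ to 3′, from RefSeq on GRCh38.p14, at chr1:43300732-43300981 for TIE1, chr7:116671946-116672195 for MET, chr2:111898357-111898606 for MERTK and chr15:41558962-41559211 for TYRO3. Capitals mark the GC box GGGCGG and the ETS core AGGAA on either strand.
TIE1: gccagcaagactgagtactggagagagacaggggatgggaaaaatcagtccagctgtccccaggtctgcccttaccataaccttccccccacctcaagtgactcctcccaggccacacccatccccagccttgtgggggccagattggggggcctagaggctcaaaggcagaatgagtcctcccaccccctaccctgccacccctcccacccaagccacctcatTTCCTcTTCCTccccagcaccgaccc
MET: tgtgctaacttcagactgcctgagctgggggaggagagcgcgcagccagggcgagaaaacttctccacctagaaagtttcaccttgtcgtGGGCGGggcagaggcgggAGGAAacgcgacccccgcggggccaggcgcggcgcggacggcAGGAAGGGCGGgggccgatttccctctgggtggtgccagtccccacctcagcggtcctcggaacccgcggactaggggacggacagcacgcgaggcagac
MERTK: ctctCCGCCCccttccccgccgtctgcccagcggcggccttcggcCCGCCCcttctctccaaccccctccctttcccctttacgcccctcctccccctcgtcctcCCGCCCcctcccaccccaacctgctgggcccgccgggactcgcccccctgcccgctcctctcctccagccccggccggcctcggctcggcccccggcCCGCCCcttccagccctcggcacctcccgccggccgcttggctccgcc
TYRO3: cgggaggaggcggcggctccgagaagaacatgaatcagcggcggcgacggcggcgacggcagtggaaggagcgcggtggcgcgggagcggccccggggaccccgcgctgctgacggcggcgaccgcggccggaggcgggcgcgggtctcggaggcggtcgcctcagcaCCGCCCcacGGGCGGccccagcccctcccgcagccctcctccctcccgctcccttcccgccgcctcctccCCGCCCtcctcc
The TIE1 window had 61.6% G and C, 1 CpG and 0 GC boxes, with 2 ETS cores side by side near its end. The windows of MET, MERTK and TYRO3 had 68.4%, 78.8% and 80% G and C, 24, 25 and 39 CpGs, and 2, 4 and 3 GC boxes. MET also had 2 ETS cores, the second of which directly precedes a GC box, and MERTK and TYRO3 had 0. Among 27305 RefSeq windows of this length 42.2% held a GC box and 56.8% an ETS core, so both are common, and of the 46 receptors with a RefSeq window, a GC box was found in 35 and an ETS core in 23. The AP-1 motif TGANTCA occurred once, in TYRO3 (6.57% of all windows). These are matches of letters and not shown binding sites.

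MET, the receptor for hepatocyte growth factor and a driver of cell scattering, was lower on all 4 of its probe sets. The brightest read 623.2 on the S100A7 array and 1285 on the vector array, 2.06-fold lower. The others read 573.2 against 1013, 471.2 against 998 and 136.7 against 294. Their log2 ratios ran from -1.11 to -0.82, so all 4 differed in the same direction by a like amount. HGF, the MET ligand, was under the floor on both arrays, as was the MET co-receptor PLXNB1. CD44, another MET co-receptor, had a log2 ratio of 0.12 on its brightest probe set and 0.10 to 0.70 over its 12 measured probe sets. MST1R, the MET relative that binds macrophage-stimulating protein, read 71.6 on the S100A7 array and 15.9 on the vector array, at least 1.01-fold higher. Because the higher value only just reaches the floor, the size of that difference is not known.

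**Figure D3:**
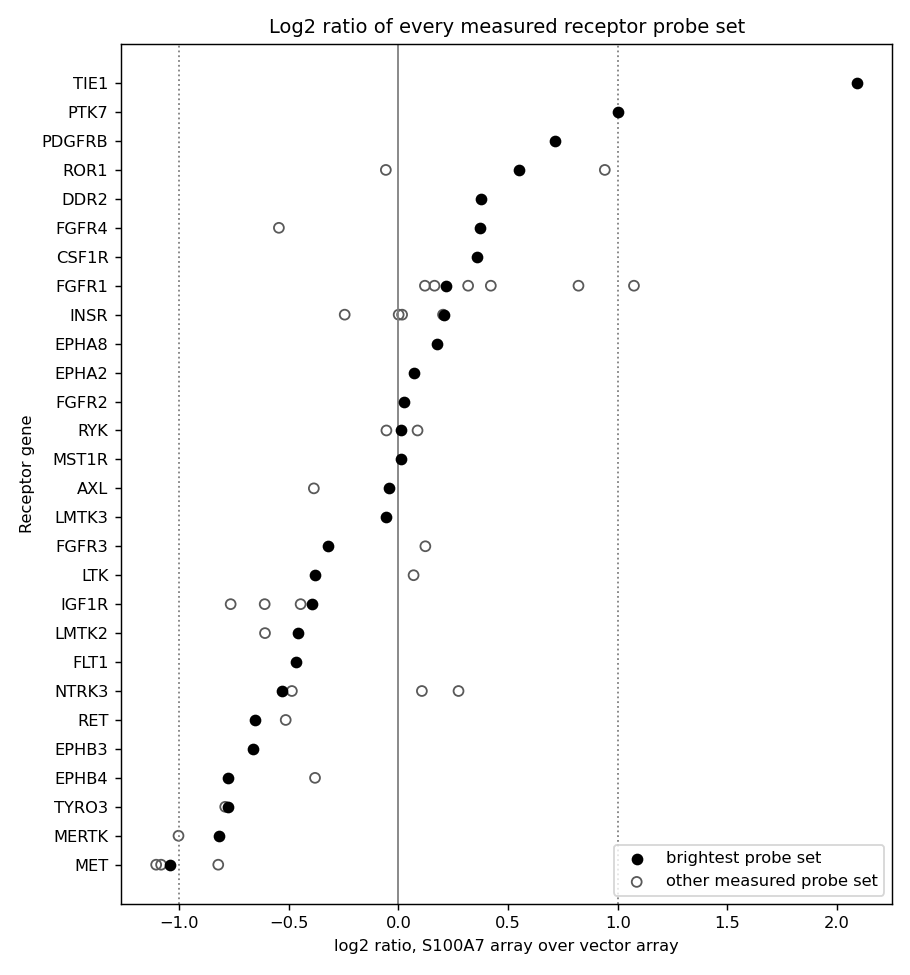
Log2 ratio, S100A7 array over vector array, for each of the 60 measured probe sets of the 28 measured receptor genes, with the brightest probe set of a gene as a filled circle and its others as open circles; dotted lines mark 2-fold. The 4 MET probe sets cluster at the left between -1.11 and -0.82, whereas those of FGFR1, ROR1, FGFR4 and NTRK3 are spread out.

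The TAM receptors AXL, MERTK and TYRO3 bind GAS6 and protein S and are best known for the uptake of dying cells and for dampening inflammation. AXL, the brightest receptor of the class, read 18543 on the S100A7 array and 19117 on the vector array on its brighter probe set, and 2328 on the S100A7 array and 3042 on the vector array on the other. That is a log2 ratio of -0.04 on the first and -0.39 on the other. MERTK was lower on both measured probe sets, 288.6 on the S100A7 array against 509 on the vector array and 214.9 against 431, and its remaining probe set was under the floor. TYRO3 was lower as well, 645.5 on the S100A7 array against 1108 on the vector array and 184 against 318. The brightest probe set was 1.76-fold lower for MERTK and 1.72-fold lower for TYRO3, short of the 2-fold that counts as a call.

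The ligand GAS6 was higher on the S100A7 array. It read 4351 on the S100A7 array and 2361 on the vector array on its brighter probe set, and 1894 on the S100A7 array and 933 on the vector array on the other, log2 ratios of 0.88 and 1.02. Protein S (PROS1) read 268 on the S100A7 array and 310 on the vector array. GAS6 and PROS1, like the ephrins below, were picked out after their values were seen.

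Of 16 receptors with 2 or more measured probe sets, 3 had all of them at least 1.5-fold lower (MET, MERTK and TYRO3), against 2.46% of 6465 genes with as many, and 0 had all of them at least 1.5-fold higher, against 2.41%. Every measured probe set of MERTK and TYRO3 has the suffix _s_at, as does that of TIE1. Of the MET probe sets only the brightest has neither _x_at nor _s_at. For 8 of the 16 every probe set was below 0 (background 29.2%), namely MET, AXL, MERTK, TYRO3, IGF1R, EPHB4, RET and LMTK2, and for 1, FGFR1, every one was above 0 (background 27.7%). The other 7 had probe sets on both sides of 0. The standard deviation between probe sets of 1 gene was 0.30 on the log2 scale over these 16 receptors and 0.36 over the 6465 genes. It measures disagreement between probe sets on 1 pair of arrays, not the spread between cultures.

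Eph receptors bind ephrins on adjoining cells and sort cells by contact. EPHA2, the Eph receptor most linked to breast cancer invasion, read 6824 on the S100A7 array and 6502 on the vector array, a log2 ratio of 0.07. EPHB4, which pairs with ephrin-B2, read 387.8 on the S100A7 array against 665 on the vector array and 287.7 against 375, the first 1.71-fold lower. EPHB3 read 61.9 on the S100A7 array and 109 on the vector array, at least 1.58-fold lower. EPHA8 read 102 on the S100A7 array and 90.5 on the vector array, and the 7 other Eph receptors with probe sets, EPHA1, EPHA3, EPHA4, EPHA5, EPHA7, EPHB1 and EPHB6, were under the floor. Among the ephrins EFNB2, the EPHB4 ligand, read 693.8 on the S100A7 array against 1354 on the vector array and 179 against 358 on its other probe set, and both pairs differed by close to 2-fold. EFNA1, a ligand of EPHA2, read 66.1 on the S100A7 array and 137 on the vector array, a log2 ratio of at most -0.99. EFNA5 (836 on the S100A7 array, 840 on the vector array) and EFNA4 (367 on the S100A7 array, 343 on the vector array) lay close to equal.

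**Figure D4:**
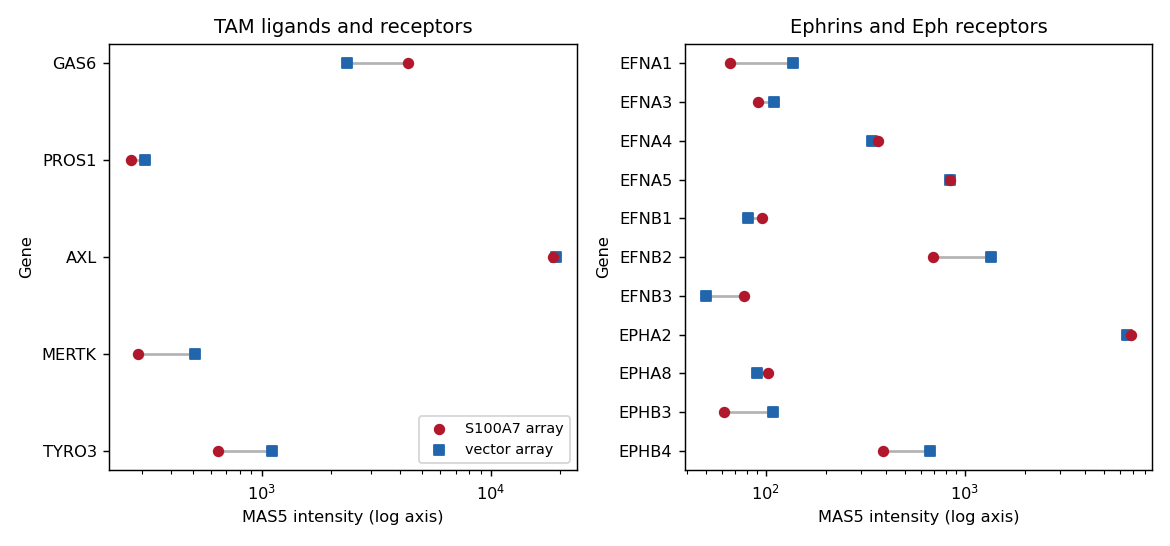
MAS5 intensity (log axis) of the brightest measured probe set of the TAM ligands and receptors (left) and of the ephrins and Eph receptors (right), S100A7 array as red circles and vector array as blue squares. GAS6 lies to the right on the S100A7 array while MERTK and TYRO3 lie to the left, and EFNB2 and EPHB4 both lie to the left.

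The Wnt-linked receptors ROR1, ROR2, RYK and PTK7 carry kinase or kinase-like domains and take part in planar cell polarity and WNT5A signalling. PTK7, a pseudokinase, read 383.2 on the S100A7 array and 191.6 on the vector array. Its log2 ratio of 0.99994 is just under the 2-fold line, and its other probe set, 58.3 on the S100A7 array and 30.5 on the vector array, was under the floor. ROR1, an oncofetal receptor, read 607.3 on the S100A7 array against 415 on the vector array, 269.5 against 140 and 158.5 against 165. The first 2 were higher by 0.55 and 0.94 on the log2 scale and the other was level at -0.06. RYK was level on all 3 probe sets, from 1800 on the S100A7 array and 1786 on the vector array on the brightest to log2 ratios between -0.05 and 0.09. ROR2 was under the floor. WNT5A, their ligand, was under the floor on both arrays. FZD7 (1017 on the S100A7 array, 639 on the vector array) and LRP6 (1037 on the S100A7 array, 754 on the vector array), listed here among the co-receptors, had log2 ratios of 0.67 and 0.46.

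FGF receptors bind fibroblast growth factors together with heparan sulfate. FGFR1 had 7 measured probe sets, all higher on the S100A7 array by log2 ratios of 0.12 to 1.07. The 3 brightest read 1610 on the S100A7 array against 1386 on the vector array, 1705 against 1273 and 1492 against 1331. The 2 widest ratios belonged to dim probe sets, 152 against 72.2 and 171 against 96.7. FGFR3 read 119 on the S100A7 array and 149 on the vector array on its brighter probe set. On its other it read 77.3 on the S100A7 array and 37.8 on the vector array, at least 1.09-fold higher. FGFR4 read 113 on the S100A7 array and 87.1 on the vector array on 1 probe set, and 70.6 on the S100A7 array and 103 on the vector array on another. For both genes the probe sets disagreed in direction. FGFR2 had 11 probe sets, of which 1 was measured, at 99.7 on the S100A7 array and 97.8 on the vector array.

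The insulin receptor class regulates growth and metabolism. IGF1R was lower on its 4 measured probe sets, with 391 on the S100A7 array against 514 on the vector array on the brightest and log2 ratios from -0.77 to -0.39. INSR stood between -0.25 and 0.21 over 5 probe sets, with 552 on the S100A7 array and 478 on the vector array on the brightest. INSRR was under the floor. LMTK2, a lemur kinase of membrane traffic, read 440 on the S100A7 array and 605 on the vector array, a log2 ratio of -0.46, and LMTK3 read 85.1 on the S100A7 array and 88.4 on the vector array.

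Apart from TIE1, the receptors that mark other cell types were dim or under the floor. CSF1R, the macrophage receptor, read 164 on the S100A7 array and 128 on the vector array. PDGFRB, the pericyte receptor, read 117 on the S100A7 array and 65.4 on the vector array, at least 1.64-fold higher. Of 6 leukocyte markers with probe sets 0 reached the floor on the S100A7 array and 1 on the vector array, with summed signals of 212 on the S100A7 array and 220 on the vector array, and the 6 markers of fibroblasts and pericytes summed to 984 on the S100A7 array and 1259 on the vector array. The lower sum rests on the brightest COL1A1 probe set, 487 on the S100A7 array and 842 on the vector array, while its other 2 measured probe sets were higher, by 0.76 and 0.42 on the log2 scale. RGS5, a pericyte marker, read 251 on the S100A7 array and 164 on the vector array, a log2 ratio of 0.61, and all 6 of its probe sets were above 0. ACTA2, on the same list, went the other way, with 132 on the S100A7 array and 149 on the vector array, a log2 ratio of -0.18. COL3A1, DCN and LUM were under the floor on both arrays. The part of other cell types in the PDGFRB value was not tested. DDR2, a collagen receptor, read 136 on the S100A7 array and 105 on the vector array. FLT1, a VEGF receptor, had 1 of 6 probe sets measured, at 162 on the S100A7 array and 224 on the vector array, and KDR (44.5 on the S100A7 array, 42.3 on the vector array) and FLT4 were under the floor. KIT, FLT3, PDGFRA, NTRK2, ALK, ROS1 and MUSK were under the floor on both arrays. RET, the GDNF family receptor, read 79.3 on the S100A7 array against 125 on the vector array and 66.2 against 98.5, the first 1.58-fold lower. NTRK3 and LTK lay at the floor, and the sign of their log2 ratio turned with the treatment of low values. The 49 probe sets of the 19 unmeasured receptors ran from 0.997 to 68.8 on the S100A7 array (median 14.2) and from 1.46 to 67.6 on the vector array (median 11.4).

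Several receptors with lower signals lay among genes that were also lower. MET, EPHB4 and LMTK2 are genes of chromosome 7, and over all 576 measured genes there the median log2 ratio was -0.30. TYRO3, IGF1R, NTRK3 and LTK are genes of chromosome 15, where the median over 420 genes was -0.33. All 7 were below 0 with the floor in place, but the sign of NTRK3 and LTK turned with the treatment of low values. The median over the 40 nearest measured genes was -0.44 at MET, -0.53 at EPHB4, -0.39 at IGF1R, -0.28 at TYRO3 and -0.27 at MERTK on chromosome 2. Set against those neighbours, MET stood at -0.61, MERTK at -0.55, TYRO3 at -0.50, EPHB4 at -0.25 and IGF1R at -0.003. PTK7 on chromosome 6 had neighbours at 0.28 and stood 0.72 above them. TIE1 on chromosome 1 had neighbours at 0.17 and stood 1.93 above them, so its difference was almost as large within its neighbourhood. RET on chromosome 10 had neighbours at 0.35 and stood at -1.01 against them. In all, 20 of the 28 receptors had the sign of their neighbours, or 71.4%, against 65.9% of 12660 genes. The part of chromosomal position in these ratios was not tested.

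**Figure D5:**
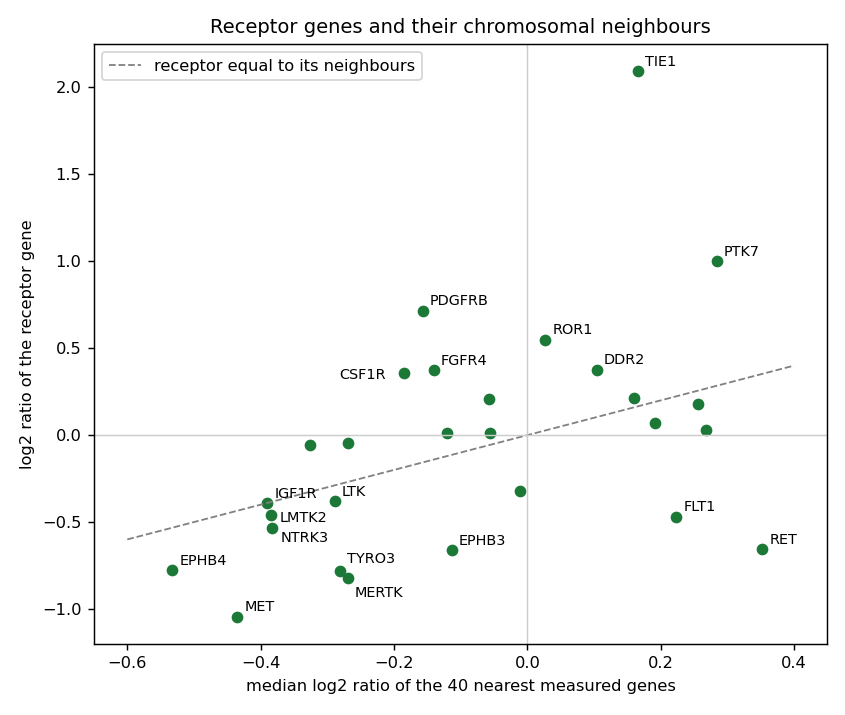
Log2 ratio of each of the 28 measured receptor genes (vertical) against the median log2 ratio of its 40 nearest measured genes (horizontal), S100A7 array over vector array; the dashed line marks a receptor equal to its neighbours. TIE1, at 2.09 over neighbours at 0.17, lies far above the line, MET lies below it, and IGF1R lies on it.

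Other parts of the pathway showed few calls, beside backgrounds of 1.8% higher and 2.25% lower over all measured genes. Of 57 ligands listed 50 had probe sets and 36 were measured, with 1 at least 2-fold higher, 0 lower and a median log2 ratio of -0.04. That 1 was PSPN (persephin, a GDNF relative that signals through RET), at least 2.06-fold higher on a probe set reading 146 on the S100A7 array and 62.6 on the vector array, while its other probe set was at 0.03. CSF1, the CSF1R ligand, read 883 on the S100A7 array and 531 on the vector array, with all 3 measured probe sets between 0.55 and 0.73. The 8 measured co-receptors had 0 members outside 2-fold and a median of 0.09.

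Among 25 measured adaptors and effectors SHC3, a phosphotyrosine adaptor best known from neurons, was the 1 at least 2-fold lower, with 163 on the S100A7 array against 418 on the vector array and log2 ratios of -1.42, -1.36 and -0.25 over its 3 probe sets; 0 were 2-fold higher and the median was -0.01. Among 30 measured negative regulators and sheddases SPRED3, an inhibitor of RAS-ERK signalling, was the 1 lower, with 187 on the S100A7 array against 488 on the vector array, or 2.61-fold lower on its 1 measured probe set; 0 were 2-fold higher and the median was -0.09. FURIN, the protease that cleaves the MET precursor, read 529 on the S100A7 array and 915 on the vector array.

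For comparison, the 3 measured members of the EGFR family had log2 ratios between -0.06 and 0.16, with EGFR at 1677 on the S100A7 array and 1497 on the vector array. The 18 measured cytoplasmic tyrosine kinases had 0 members outside 2-fold and a median of 0.09, against 2 outside 2-fold among the 28 receptors. Over all 12688 measured genes 1.8% were at least 2-fold higher and 2.25% lower, so lists this short hold few calls and the counts are not read as a difference. No test of a difference between these lists was possible with 1 array a line.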

How the data were processed

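Total RNA of 2 stable lines of MDA-MB 231 was hybridised to Affymetrix arrays, 1 array per line. The deposited values are intensities on a linear scale, made with MAS5 per the submitters' processing notes, with no version or scaling target given in the sources used here. With 2% of values trimmed from either end, both arrays averaged 500.1, and the deposited intensity values were used without further scaling. A line about embryos in the label of the S100A7 sample describes no cell line and was not used.

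The platform's annotation named the probe sets: 41091 listed 1 gene, 1801 several and 11721 none, and 62 were controls. Of those with 1 gene, 41037 matched a RefSeq table (GRCh38.p14) by Entrez identifier, and the table gave current symbols and the order of genes along chromosomes. The floor, the representative probe set and the 2-fold threshold are as given above, and 24438 probe sets of 12688 genes were measured. Log2 ratios are S100A7 over vector. All receptors could be named. Beyond them the rule named S100A7, the ligands and co-receptors of any receptor at least 2-fold apart, and up to 4 genes at least 2-fold higher and 4 lower from each pathway list. Any other gene was picked after its values were seen. The receptors and lists were chosen with earlier results of these data known. Alternatives were median centring, quantile normalization, no floor, a floor at the 30th or the 70th percentile, a pseudocount of 32, the median over probe sets, probe sets without _x_at and _s_at, and thresholds of 1.5-fold and 3-fold. Subtraction of the median of the 40 nearest genes (20 on each side) was added after seeing the data. Counting was tested on simulated data. Python 3.11.15, numpy 2.4.6 and pandas 2.3.3 were used.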

Additional observations from a re-analysis of the deposited data

How the results depend on the processing

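With 1 array a line, the precision is limited by the number of arrays and by signal over background: 82 of the 142 receptor probe sets were under the floor on both arrays. MET stayed at least 2-fold lower in 8 of 9 settings that recompute its ratio, and stood at -0.61 after subtracting its neighbours' median. TIE1 was at least 2-fold higher in all 8 of its settings, at 1.02 with the floor at the 70th percentile, and has no value without the suffixes _x_at and _s_at. MERTK and TYRO3 likewise have no value without them. PTK7 passed 2-fold with median centring (1.04) and was at 0.44 with the floor at the 70th percentile. MST1R passed it with the floor at the 30th percentile (1.43), with no floor (2.17) and with the pseudocount (1.11). RET passed it, at -1.01, against its neighbours. PSPN fell short with the median over probe sets (0.54), the pseudocount (0.92) and without the suffixes (0.03), and SHC3 (-0.56) and SPRED3 (-0.79) fell short with the floor at the 70th percentile. The sign turned for LTK and NTRK3 with the floor at the 30th percentile or with none (0.32 and 0.45) and with the pseudocount (0.22 and 0.31), for NTRK3 without the suffixes (0.27), and for FGFR4 with the median over probe sets (-0.09). Against their neighbours it turned for AXL (0.23), LMTK3 (0.27), EPHA2 (-0.12), EPHA8 (-0.08) and FGFR2 (-0.24).

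Receptors at least 2-fold higher, 1 as reported, numbered 2 with median centring, with the floor at the 30th percentile and with the pseudocount, 6 with no floor, 0 without the suffixes and 3 at 1.5-fold. Those lower, 1 as reported, numbered 2 with the floor at the 30th percentile, 6 with no floor, 6 at 1.5-fold and 0 at 3-fold. The median of the receptors was 0.070 with no floor, over 47 genes, and 0.12 without the suffixes, over 18. The floor set how many were measured, 41 at the 30th percentile and 14 at the 70th. Genes of the whole array called higher numbered 679, 99 and 1911 with the floor at the 30th percentile, at the 70th and with none, and 1030 and 47 at 1.5-fold and 3-fold. Those lower numbered 979, 88, 2387, 1275 and 55 in the same order. Higher and lower genes numbered 228 and 286 as reported, 267 and 245 with median centring, 318 and 406 with the pseudocount, and 228 and 227 without the suffixes. Counts with no floor are out of 19775 genes, and those at 1.5-fold, at 3-fold and with the pseudocount out of 12688. For the other settings no share over all genes is given here, so those receptor counts are not set against a background. Of 228 receptor log2 ratios recomputed under the alternatives, 209 moved by less than the standard deviation between probe sets of 0.36. Except where stated, the cause was not tested. No paired analysis was possible because each line had 1 array.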
